A study of Rattus norvegicus with 12 samples.

Results

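The BCL2 family decides whether a stressed cell keeps its mitochondria intact or dies by apoptosis. Pro-survival members (*Bcl2*, *Bcl2l1* and *Mcl1*) hold the mitochondrial outer membrane closed, the effectors (*Bax* and *Bak1*) open it, and the BH3-only members (*Bad*, *Bid*, *Bik*, *Bcl2l11* and *Bbc3*) tip the balance toward death by neutralising the first class or activating the second. Estrogens drive growth of the lactotrophs, the prolactin cells of the anterior pituitary, in sensitive rat strains, and the removal of such cells by apoptosis is one of the processes that sets the size of the gland. With earlier results of these data known, the genes described here were chosen by name and are these 10. Of them, 9 had at least 1 probe set annotated to that symbol alone, of 14218 genes named in this way, with 15 probe sets of the 31099 on the array. The only probe set of *Bax* named it together with 1 other gene, so no value is given for *Bax*. Of the 15 member probe sets, 12 were bright enough to be tested. The 3 left out as dim were 2 of the 3 for *Bcl2l1* and 1 of the 3 for *Bcl2l11*.

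The values came from 12 expression arrays of anterior pituitary RNA of male rats, 3 arrays for each of 4 congenic lines. Each line carried alleles of the COP strain on the ACI background at an Ept locus, a locus linked to the growth of the pituitary under estrogen. The COP alleles of Ept1 lay on chromosome 6, those of Ept2 and of Ept6 on chromosome 3, and those of Ept9 on chromosome 10. All animals received an implant of 5 mg of the synthetic estrogen diethylstilbestrol (DES) under the skin at 9 weeks of age, were killed at 21 weeks after 12 weeks of treatment, and were injected with BrdU at 50 mg/kg 4 hours before. No sham-treated and no ACI array was analysed here, so each congenic line was compared with the others, and these comparisons are tied to one another. The labels disagree on whether 3 males per line gave 3 or 2 independent replicates. The arrays were counted as 3 samples per line, and the p-values measure only the spread between them, which may be technical in part.

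The arrays were close to one another, with correlations from 0.959 to 0.970 between pairs. The hormone genes *Prl*, *Gh1* and *Cga* of the anterior lobe were bright, while *Lhb* and *Fshb* had mean signals of 300 and 264. The summed signal of the 4 lactotroph markers, most of it *Prl*, ran from 52218 to 62019. That of the 4 gonadotroph markers, nearly all of it *Cga*, ran from 29428 to 41209. The 3 posterior lobe markers were measured and all were too dim to be tested, and of the corticotroph markers only *Tbx19* was bright enough while *Pomc* was dim. In the Ept2 line the summed signal of 2 somatotroph markers (36135 to 40938) lay above every other array, of which the highest was 34502. Nearly all of this sum was *Gh1*, and the other marker, *Ghrhr*, had a mean signal of 157 in Ept2 against 168 in Ept1. The summed signal of the 3 folliculostellate and stem cell markers also set Ept2 apart, with 1225 to 1768 against at most 1188 on the 9 other arrays. Of these, *Sox2* alone overlapped the other lines, with 245.1 to 407.1 in Ept2 and 278.9 to 302.2 in Ept1. All 3 markers had an unadjusted p under 0.05 in Ept2 and 0 passed the limma test. The Ept2 line also stood apart in an RNA quality measure of the *Gapdh* control. This is the log2 difference of its signal at the 3' end from that at the 5' end. It was 0.38 ± 0.057 (SD, n = 3) in Ept2, with arrays from 0.31 to 0.42, against 0.088 to 0.28 on the 9 other arrays. The actin and hexokinase controls also had their highest line mean in Ept2 (1.81 and 1.53), but there the Ept2 arrays overlapped those of Ept1.

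Of the 9 measured members, only *Bcl2l1* and *Bcl2l11* lie on a chromosome that holds a segment of one of these lines, chromosome 3. Their reference promoter sequences are shown for that reason, each from 250 bases before to 50 bases after a RefSeq gene start on GRCr8, and the motif searched on both strands was GGTCA, read as TGACC on the other strand, the estrogen response element half-site. It was in 40.5% of 33469 promoter windows and in 3 of the 10 windows of the 7 member genes with an entry. Capitals mark the half-site. The *Bcl2l11* window, at chr3:135819792-135820091 on the plus strand, held 1, in its last 5 bases. The most upstream of the 4 *Bcl2l1* windows, at chr3:161764726-161765025 on the minus strand, held none. A match is a description of letters and not of a bound site. The reference strain is neither ACI nor COP, whose alleles were not read here, and the ends of the congenic segments were not used.
Bcl2l11: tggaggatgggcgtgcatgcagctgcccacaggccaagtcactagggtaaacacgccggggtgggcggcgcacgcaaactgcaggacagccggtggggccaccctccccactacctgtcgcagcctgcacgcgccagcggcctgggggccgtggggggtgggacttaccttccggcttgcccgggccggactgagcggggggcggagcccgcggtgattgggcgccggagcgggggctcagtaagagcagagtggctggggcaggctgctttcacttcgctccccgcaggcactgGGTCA
Bcl2l1: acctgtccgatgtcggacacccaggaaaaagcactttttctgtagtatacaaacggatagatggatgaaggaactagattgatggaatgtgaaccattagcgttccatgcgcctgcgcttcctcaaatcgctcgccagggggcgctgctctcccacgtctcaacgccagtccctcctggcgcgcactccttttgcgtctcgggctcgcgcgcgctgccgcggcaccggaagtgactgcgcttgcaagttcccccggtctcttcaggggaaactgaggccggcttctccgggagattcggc

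*Bik*, a BH3-only member that acts largely from the endoplasmic reticulum, had the lowest p of the members in the test among lines. It was lowest in Ept1 and highest in Ept2, on a linear signal scale on which every array has the same trimmed mean. In Ept1 the 3 arrays gave signals of 459.8, 478.0 and 641.1, with a mean of 526 ± 99.8 (SD, n = 3). In Ept6 they gave 561.6, 709.9 and 633.9, with a mean of 635 ± 74.2. In Ept9 they gave 716.9, 915.2 and 864.9, with a mean of 832 ± 103, and in Ept2 they gave 813.2, 799.5 and 1031.7, with a mean of 881 ± 130. Every Ept1 and Ept6 array was therefore below every Ept2 and Ept9 array, while within each of these pairs of lines the arrays overlapped. This split was noticed after the values were seen. It was found in 1 of the 12 tested member probe sets, and arrays of any 2 lines lay wholly below those of the other 2 in 2.79% of all 18607 tested probe sets. The direction seen here, Ept1 and Ept6 below Ept2 and Ept9, was found in 0.763%. No member had the arrays of 1 line all above or all below the 9 others, which held for 1.17% of all tested probe sets in Ept1, 3.6% in Ept2, 1.93% in Ept6 and 2.68% in Ept9.

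**Figure D1:**
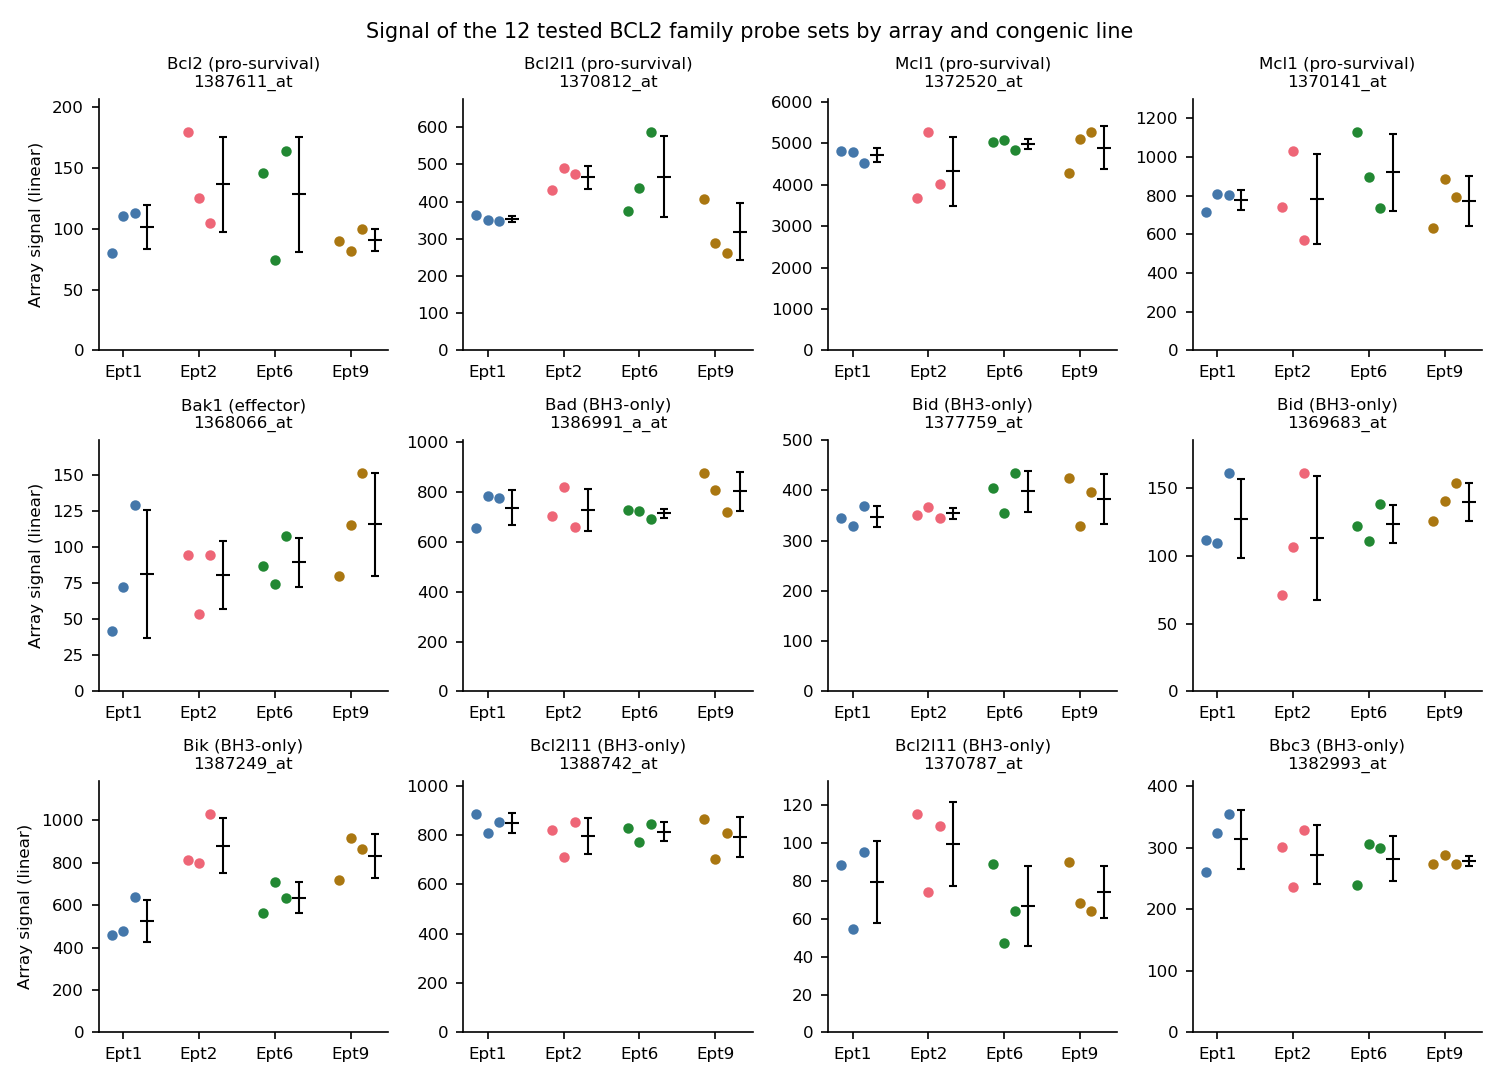
Linear array signal (vertical axis) of the 12 tested member probe sets in the 4 congenic lines (horizontal axis), 1 point per array, with the mean and SD of 3 arrays beside the points. *Bik* is the panel in which the Ept1 and Ept6 points (459.8 to 709.9) all lie below the Ept2 and Ept9 points (716.9 to 1031.7).

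The difference in *Bik* did not pass the test. The ratio of the highest to the lowest line mean was 1.67. The moderated F test of limma among lines gave an adjusted p = 0.118 over all probe sets (unadjusted p = 0.00255), and the exact permutation test over the 15400 partitions of the arrays gave p = 0.00786 for this probe set alone. In all, 15 member probe sets were tested in this way. As the members were chosen with earlier results of these data known, this p is not independent support. Ept1 was below the mean of the other lines by a log2 change of -0.55 (SE 0.13, 95% interval -0.84 to -0.27, limma adjusted p = 0.242), and Ept2 was above it by 0.42 (SE 0.13, 95% interval 0.14 to 0.71, limma adjusted p = 0.170). For Ept9 the log2 change was 0.32 (95% interval 0.03 to 0.60, limma adjusted p = 0.402), and for Ept6 it was -0.19 (95% interval -0.47 to 0.10). Between lines the widest differences were Ept1 minus Ept2, with a log2 change of -0.73 (SE 0.16, limma adjusted p = 0.175), and Ept1 minus Ept9, with -0.65 (SE 0.16, limma adjusted p = 0.142). Its call depended on the setting. The limma F test gave an adjusted p = 0.0469 when only probe sets above the 60th percentile of signal were tested, and 0.0199 when the prior spread was allowed to follow the signal. Under that second setting Ept1 was also lower than Ept2 (limma adjusted p = 0.0335) and than Ept9 (limma adjusted p = 0.0334). Both settings called more probe sets in general. The F test called 2.39% of all tested probe sets with the filter at the 60th percentile and 2.25% with the second setting, against 0.989% in the main fit. The share of all probe sets called between pairs of lines under the second setting is not given here. Over 21 alternatives the adjusted p of the F test ran from 0.0199 to 0.272.

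A tissue sample mixes cell types, and in it fewer cells of a type and less RNA per cell cannot be told apart. The red blood cell marker *Hbb*, a beta globin, had the same split as *Bik*. Its signal was 15282 to 17139 in Ept1 and 12898 to 14035 in Ept6, against 18023 to 19270 in Ept2 and 17963 to 28746 in Ept9. It did not pass the limma F test among lines (adjusted p = 0.139). Of 4 red blood cell markers, 2 were measured, *Hbb* and *Alas2*, both bright enough to be tested. *Alas2* did not have this split, with 345.9 to 438.9 in Ept1, 262.9 to 371.8 in Ept6, 355.8 to 419.8 in Ept2 and 397.1 to 920.4 in Ept9. The summed signal, nearly all of it *Hbb*, ran from 15628 to 17569 in Ept1 and from 13217 to 14370 in Ept6, against 18379 to 19690 in Ept2 and 18392 to 29666 in Ept9. The gonadotroph marker *Lhb* had line means in the same grouping, 257 in Ept1 and 253 in Ept6 against 363 in Ept2 and 327 in Ept9. Its Ept6 and Ept9 arrays overlapped, and it did not pass either (limma F test adjusted p = 0.211). The part of these markers in the *Bik* values was not tested. The *Gapdh* 3' minus 5' difference had line means of 0.14 in Ept6, 0.21 in Ept9, 0.25 in Ept1 and 0.38 in Ept2. Ept2 was the highest line in this measure and in *Bik*, while the other lines differed in order. The part of this measure in the *Bik* values was not tested.

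Among 14493 probe sets of other genes with 1 symbol, the pattern of *Bik* over the 12 arrays was most like that of *Dpy30* (Pearson r = 0.929), which encodes a subunit of histone H3 lysine methyltransferase complexes. It was followed by *Dnaja2*, a co-chaperone of HSP70 proteins (r = 0.890), *Tmem35b* (r = 0.885), *Tspo*, a protein of the mitochondrial outer membrane (r = 0.883), and *Rbis*, a factor of ribosome biogenesis (r = 0.878). These are descriptions over 12 arrays that share lines and scaling. In all, 58 probe sets reached an r over 0.8, and the 99th percentile of r was 0.759. The lines differed less in *Dpy30* than in *Bik*, with a mean signal of 1736 ± 99.02 in Ept1 and 2102 ± 116 in Ept2 (SD, n = 3). *Dpy30* lies on chromosome 6, the chromosome of the Ept1 segment, and whether it lies within that segment is not known here. *Tmem35b* had means of 232 ± 45.8 in Ept1 and 411 ± 64.6 in Ept2. *Tspo* lies on chromosome 7, as does *Bik*, and its means were 356 ± 43.3 in Ept1 and 538 ± 55.8 in Ept2. None of the 5 passed the limma F test among lines, with adjusted p from 0.0920 to 0.336.

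**Figure D2:**
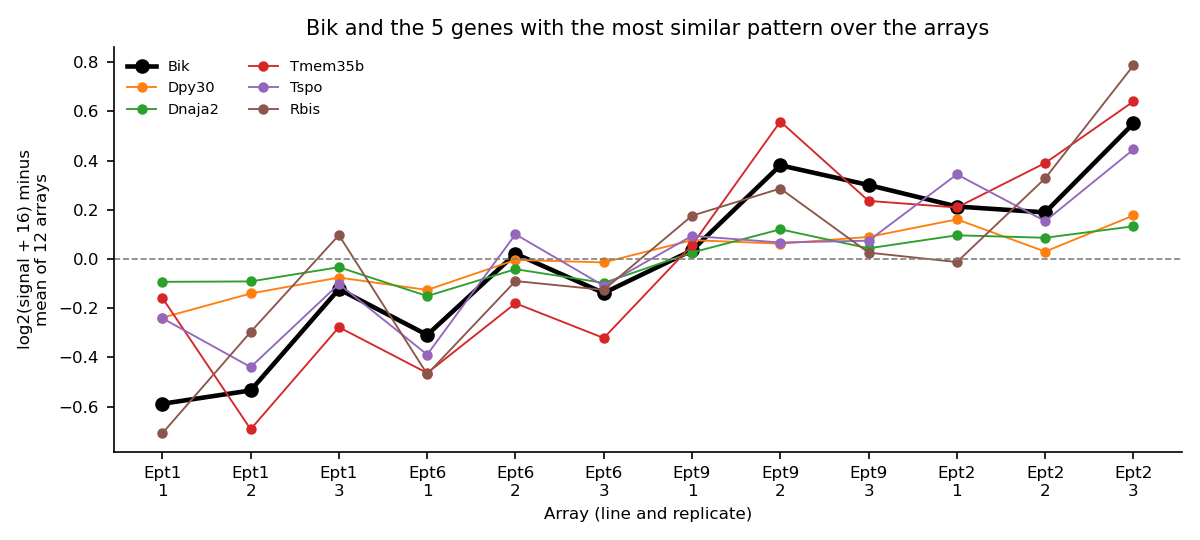
Difference of log2(signal + 16) from its mean over 12 arrays (vertical axis) for *Bik* (thick black line) and the 5 genes with the highest Pearson r to it, on each array (horizontal axis, by line and replicate, with lines placed by their mean *Bik* signal). Segments join arrays only to guide the eye, and all 6 genes lie mostly below 0 in Ept1 and Ept6 and mostly above 0 in Ept9 and Ept2, with r from 0.878 to 0.929.

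Among the pro-survival members, *Bcl2l1*, which encodes BCL-XL, came next after *Bik*. Its probe set 1370812_at gave signals of 362.6, 349.4 and 348.6 in Ept1, 431.4, 489.3 and 474.3 in Ept2, 374.7, 437.3 and 587.6 in Ept6, and 406.5, 288.5 and 262.8 in Ept9. The Ept2 arrays all exceeded those of Ept1 and Ept9, while 1 array of Ept9 reached into the range of Ept6. The limma F test among lines gave p = 0.0244 and an adjusted p = 0.281, and the exact permutation test gave p = 0.0458. Ept9 was lower than the other lines by a log2 change of -0.41 (SE 0.14, 95% interval -0.73 to -0.09, limma adjusted p = 0.320), which did not pass. *Bcl2l1* lies on chromosome 3, where Ept2 and Ept6 both carry COP alleles. Set against Ept1 and Ept9, these lines were higher by 0.45 on the log2 scale (SE 0.12, 95% interval 0.18 to 0.73, unadjusted p = 0.00405, limma adjusted p = 0.394), and this did not pass either. The ends of the segments were not used, so whether *Bcl2l1* lies within that of Ept2 or of Ept6 is not known here. The other probe sets of *Bcl2l1* were dim and did not have this order. Probe set 1370485_a_at had means from 36.6 in Ept6 to 49.1 in Ept1, and 1369180_at had means from 9.03 in Ept2 to 23.8 in Ept6.

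*Bcl2*, the founding pro-survival member, ran from 74.7 to 179.8 with a median of 108. Its line means were 90.5 ± 8.95 in Ept9, 102 ± 18.3 in Ept1, 128 ± 47.3 in Ept6 and 137 ± 38.8 in Ept2 (SD, n = 3), in nearly the line order of *Bcl2l1*. Against the rest, Ept9 differed most, with a log2 change of -0.34 (95% interval -0.79 to 0.12, limma adjusted p = 0.595). Between lines the widest difference was Ept2 minus Ept9, with 0.49 (limma adjusted p = 0.487). *Mcl1*, a short-lived pro-survival protein, was read by 2 probe sets. Probe set 1372520_at ran from 3682 to 5277, with line means from 4318 ± 838 in Ept2 to 4984 ± 122 in Ept6. Probe set 1370141_at ran from 572 to 1132, with line means from 773 ± 128 in Ept9 to 921 ± 200 in Ept6. Both put Ept6 highest. In the first, the Ept1 arrays (4517.5 to 4814.5) lay below the Ept6 arrays (4845.6 to 5071.6) while the other pairs of lines overlapped, and in the second all lines overlapped. The 95% intervals of any line against the rest stayed within a 1.34-fold change for the first and a 1.54-fold change for the second.

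Among the pro-death members, the effector *Bak1* was near the lower limit of the tested signals and spread widely. It gave 42.2, 72.7 and 129.5 in Ept1, 94.9, 53.5 and 94.4 in Ept2, 86.8, 74.5 and 108.1 in Ept6, and 80.4, 115.4 and 151.8 in Ept9. The arrays of all 4 lines overlapped, and the log2 change of Ept9 against the rest was 0.41 with a 95% interval from -0.17 to 1.00 (limma adjusted p = 0.613). The intervals of this gene allowed changes of up to 1.99-fold, the widest among the members.

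The other BH3-only members gave tighter bounds. *Bcl2l11* encodes BIM, which binds all pro-survival members, and lies on chromosome 3. Its probe set 1388742_at gave 886.9, 808.4 and 852.8 in Ept1, 822.7, 712.1 and 853.5 in Ept2, 827.5, 770.8 and 845.7 in Ept6, and 865.1, 702.9 and 809.8 in Ept9. The line means differed by a ratio of 1.07, the smallest among the tested members, and the 95% intervals stayed within a 1.21-fold change. Its dimmer probe set 1370787_at had means from 66.7 ± 20.9 in Ept6 to 99.4 ± 22.1 in Ept2, so the lines with COP alleles on chromosome 3 held both the lowest and the highest mean. The 95% intervals of this dimmer probe set were wider, within a 1.73-fold change. The third, 1387338_s_at, was too dim to be tested, with arrays from 3.50 to 97.6.

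*Bad*, which is held inactive by phosphorylation through survival kinases, ran from 655 to 878, with line means from 714 ± 18.8 in Ept6 to 803 ± 78.5 in Ept9 and all 95% intervals within a 1.27-fold change. *Bid*, which links death receptors to mitochondria once a caspase has cut it, ran from 328 to 435 in probe set 1377759_at, within a 1.26-fold change. Its dimmer probe set 1369683_at ran from 70.9 to 161.4, within a 1.56-fold change, and the probe sets disagreed on the highest line, Ept6 in the first and Ept9 in the second. *Bbc3* encodes PUMA, a target of p53. It ran from 236 to 356, with line means from 279 ± 8.89 in Ept9 to 314 ± 48.0 in Ept1, within a 1.32-fold change. For every tested member other than *Bik* and *Bcl2l1* the adjusted p of the limma F test was between 0.598 and 0.887.

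**Figure D3:**
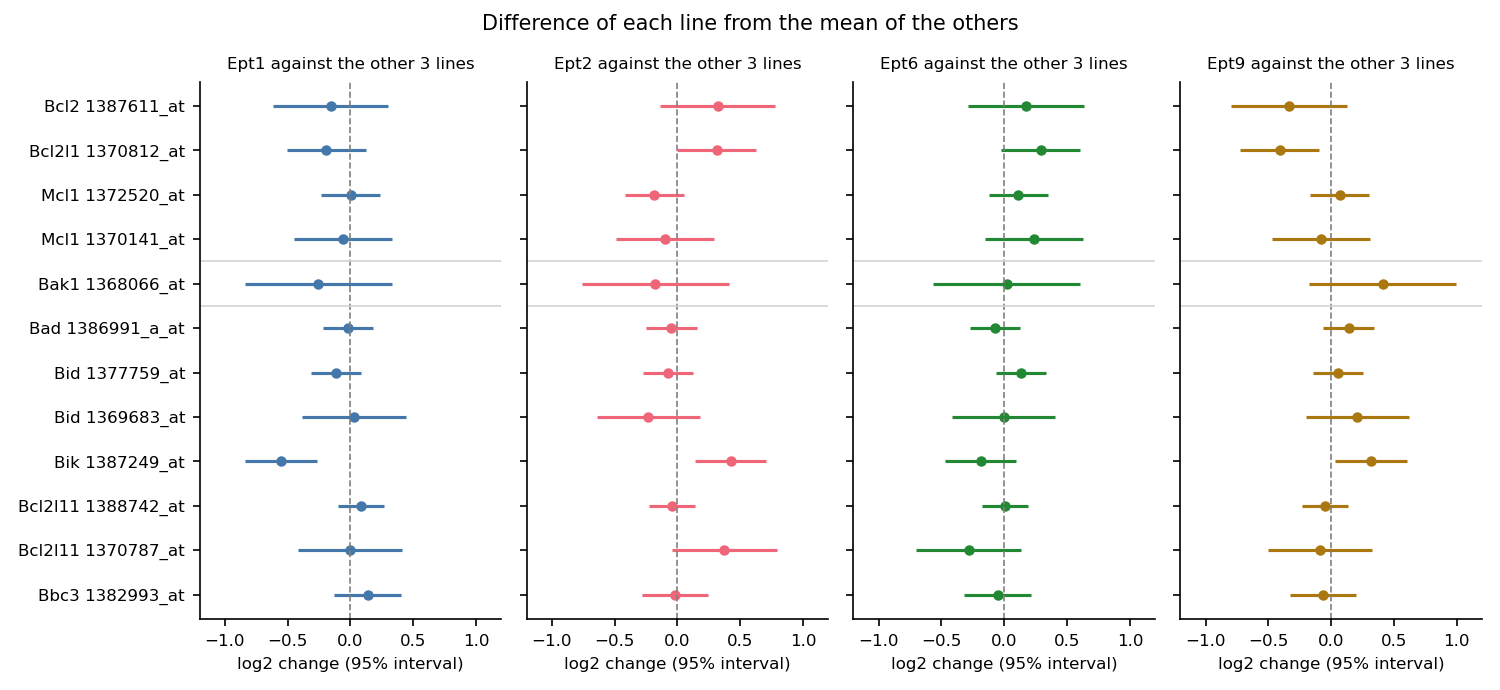
Log2 change (horizontal axis) of each line against the mean of the other 3 for the 12 tested member probe sets (vertical axis), with points for the estimate and bars for the 95% interval. Grey lines separate the pro-survival members (top), the effector *Bak1* and the BH3-only members (bottom), and the bars that miss 0 are those of *Bik* in Ept1 (-0.84 to -0.27), Ept2 (0.14 to 0.71) and Ept9 (0.03 to 0.60) and of *Bcl2l1* in Ept9 (-0.73 to -0.09).

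In counts, 0 of the 12 member probe sets passed the limma F test among lines, against 0.989% of all tested probe sets, and 2 of 12 (*Bik* and *Bcl2l1*) had an unadjusted p under 0.05, against 14.1% of all. None passed in Ept1 against the other lines (background 0.193%), in Ept2 (0.774%), in Ept6 (0.161%) or in Ept9 (0.666%), and none passed with Ept2 and Ept6 set against Ept1 and Ept9 (0.113%). Under these tests 1, 1, 0, 2 and 1 member probe sets had an unadjusted p under 0.05, where the background was 7.5%, 14.4%, 10.7%, 11% and 6.8%. In at least 1 of the 6 comparisons between a pair of lines, 0 passed (background 1.41%). At these backgrounds fewer than 1 call is the usual number for 12 probe sets. The median log2 change of the members was -0.04 in Ept1, -0.04 in Ept2, 0.01 in Ept6 and 0.00 in Ept9, beside 0.01, 0.01, 0.01 and -0.01 for all tested probe sets. The median size of a change was 0.12 for the members and 0.11 for all. The residual SD on the log2 scale had a median of 0.22 for the members and 0.19 for all, and that of *Bik* was 0.20.

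To set death against survival, the brightest probe set of each gene was taken relative to its mean over the 12 arrays, and the mean of the 3 pro-survival genes was taken from that of the 6 pro-death genes. This difference was 0.27 ± 0.085 in Ept9, -0.00 ± 0.17 in Ept1, -0.10 ± 0.22 in Ept2 and -0.16 ± 0.18 in Ept6 on the log2 scale (SD, n = 3). It is a description with no test. The Ept9 arrays ran from 0.17 to 0.33 and lay above those of Ept2 and Ept6, while the highest Ept1 array, at 0.19, reached into their range. On the side of survival, Ept9 had the lowest mean of the lines, -0.17 ± 0.057, from *Bcl2l1* (-0.31) and *Bcl2* (-0.25) while *Mcl1* stood at 0.05. On the side of death it had the highest, 0.10 ± 0.053, from *Bak1* (0.31), *Bik* (0.24) and *Bad* (0.10). The other pro-death genes stood lower, with *Bid* at 0.04, *Bcl2l11* at -0.04 and *Bbc3* at -0.05 in Ept9. The probe sets of *Bak1* and *Bcl2* are dim. Against the rest, the 95% interval of Ept9 held 0 for *Bak1* (-0.17 to 1.00), *Bad* (-0.06 to 0.34) and *Bcl2* (-0.79 to 0.12). It missed 0 for *Bik* and *Bcl2l1*, but neither passed the limma test. Without *Bik* the differences were 0.24 in Ept9, 0.06 in Ept1, -0.17 in Ept2 and -0.14 in Ept6, in which Ept2 and Ept6 change places. *Bik* itself stood at -0.41 in Ept1 and 0.32 in Ept2, with *Bbc3* at 0.10 in Ept1 and -0.01 in Ept2, so the BH3-only members did not share 1 order of lines.

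**Figure D4:**
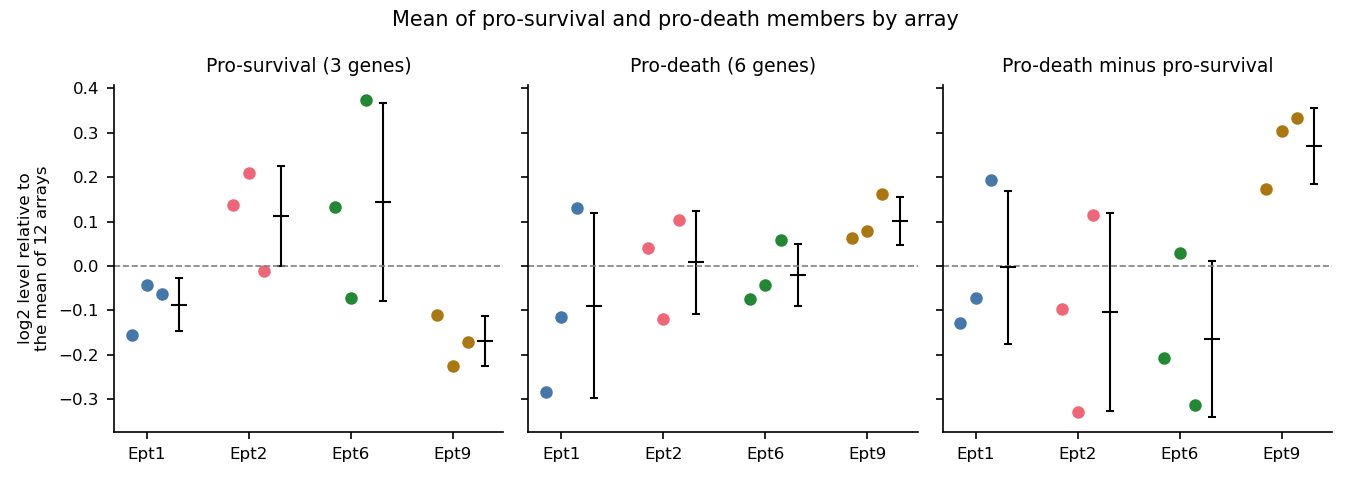
Mean log2 level of the pro-survival genes (left), of the pro-death genes (middle) and their difference (right) on each array, relative to the mean of 12 arrays (vertical axis), by line (horizontal axis), with the mean and SD of 3 arrays beside the points. In the right panel the Ept9 arrays run from 0.17 to 0.33 and the highest Ept1 array is at 0.19.

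Other genes of the apoptosis pathway were read from 5 lists with 58 genes. Of them, 48 had a probe set and 37 were bright enough to be tested, with the brightest probe set standing for a gene. Among these, 1 passed the limma F test among lines (*Birc5*), 2 were lower in Ept2 (*Birc5* and *Bcl2a1*), and 1 was higher in Ept9 (*Birc5*). Of all tested probe sets, 0.451% were called lower in Ept2 and 0.419% higher in Ept9. None passed in Ept1, in Ept6, or with Ept2 and Ept6 set against Ept1 and Ept9. An unadjusted p under 0.05 was found for 6 of the 37 genes in the F test (background 14.1%), 3 in Ept1 (7.5%), 8 in Ept2 (14.4%), 3 in Ept6 (10.7%), 7 in Ept9 (11%) and 6 with Ept2 and Ept6 set against Ept1 and Ept9 (6.8%). The median log2 change over the 37 genes was -0.02 in Ept1, 0.02 in Ept2, 0.00 in Ept6 and 0.04 in Ept9.

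*Birc5* encodes survivin, a member of the inhibitor of apoptosis family that also works in chromosome segregation at mitosis. It lies on chromosome 10, the chromosome of the Ept9 segment. Whether it lies within that segment is not known here, as the segment ends were not used. Its signals were 112.4, 136.8 and 117.6 in Ept1, 66.7, 97.7 and 82.9 in Ept2, 115.5, 104.7 and 122.3 in Ept6, and 226.6, 164.2 and 172.4 in Ept9. All Ept9 arrays lay above the 9 others and all Ept2 arrays lay below them. The log2 change was 0.75 in Ept9 (SE 0.12, limma adjusted p = 0.0255) and -0.65 in Ept2 (SE 0.12, limma adjusted p = 0.0398), and the limma F test had an adjusted p = 0.0319. These calls were fragile. Leaving out 1 array at a time kept the Ept9 call in 6 of 12 cases (adjusted p from 0.0217 to 0.120), the Ept2 call in 1 of 12 (0.0415 to 0.128) and the F test call in 1 of 12 (0.0351 to 0.0897). The Ept9 call was lost without replicate 1 or 3 of Ept1, replicate 1 of Ept6 or any replicate of Ept9, and the other calls were kept only when the array left out was replicate 2 of Ept2. With no filter on dim probe sets the adjusted p was 0.0858 in Ept9, 0.120 in Ept2 and 0.101 in the F test. With the prior spread following the signal it was 0.0687 in Ept2 and 0.0600 in the F test. With the replicate number as a block it was 0.0725 in Ept9, 0.0917 in Ept2 and 0.0969 in the F test.

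*Bcl2a1*, a pro-survival BCL2 relative best known from leukocytes, lies on chromosome 8. It gave 98.3, 131.0 and 139.4 in Ept2, against 179.4, 271.1 and 241.6 in Ept1, 198.9, 206.3 and 234.9 in Ept6, and 257.5, 188.0 and 279.1 in Ept9, so the Ept2 arrays were below all others. Its log2 change in Ept2 was -0.81 (SE 0.15, limma adjusted p = 0.0414), while the limma F test did not pass (adjusted p = 0.101). The Ept2 call was kept in 2 of 12 cases when 1 array was left out (adjusted p from 0.0349 to 0.135). These were the cases without replicate 1 of Ept1 or replicate 2 of Ept9. The call was lost with no filter (0.120), with array quality weights (0.0749) and with the replicate number as a block (0.0566). All 5 leukocyte markers were measured and 3 were bright enough to be tested. Their summed signal, most of it *Cd74*, had ranges of 5351 to 6664 in Ept1, 3311 to 6316 in Ept2, 3708 to 6237 in Ept6 and 3480 to 4342 in Ept9. *Cd74* had a log2 change of 0.10 in Ept2. The other 2 tested markers had their lowest mean in Ept2, as *Bcl2a1* did, with log2 changes of -0.32 for *Ptprc* and -0.40 for *Cd68*, and neither passed. *Cd3e* and *Cd79b* were dim. The part of the leukocyte markers in the *Bcl2a1* values was not tested. The part of the higher *Gapdh* 3' minus 5' difference and of the higher *Gh1* and folliculostellate markers of Ept2 in the *Birc5* and *Bcl2a1* values was not tested.

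Of the other BCL2 family genes, 7 of 14 were tested and *Bcl2a1* alone was called, in Ept2. *Hrk*, a BH3-only gene best known from neurons, was the highest of them in Ept2, with signals of 209.4, 99.5 and 161.8 there, against 50.1 to 101.3 on the 9 other arrays. Its log2 change was 0.91 (SE 0.22, limma adjusted p = 0.103) and did not pass. None of the 10 tested genes of the apoptosome and caspases passed in any line. *Apaf1*, the scaffold of the apoptosome, had means from 321 ± 59.95 in Ept2 to 412 ± 42.1 in Ept9, and *Casp9*, the caspase it activates, from 330 ± 83.0 in Ept1 to 364 ± 23.1 in Ept6. None of the 6 tested death receptor and ligand genes passed, nor did any of the 9 tested genes of p53 and survival control, among them *Mdm2*, the ubiquitin ligase of p53, with means from 2374 ± 69.5 in Ept6 to 2574 ± 108 in Ept9.

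**Figure D5:**
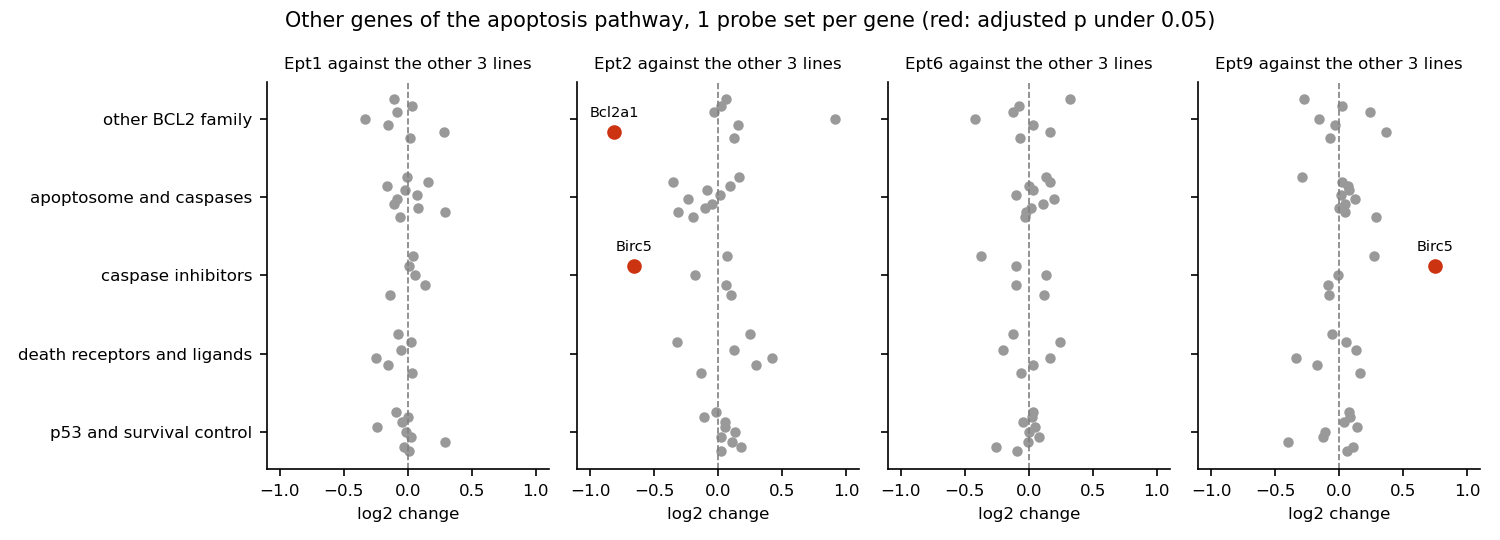
Log2 change (horizontal axis) of each line against the mean of the other 3 for the 37 tested genes of the 5 apoptosis lists (vertical axis), 1 point per gene. Red points are those with a limma adjusted p under 0.05, namely *Birc5* (-0.65) and *Bcl2a1* (-0.81) in Ept2 and *Birc5* (0.75) in Ept9, and the grey point farthest to the right in Ept2 is *Hrk* (0.91).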

How the data were processed

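The members and gene lists were chosen with earlier results of these data known. The authors deposited linear intensity values (signals) of 31099 probe sets, scaled to the same trimmed mean on every array (500.18 to 500.19 with 2% trimmed at each end), and the software behind them is not given in the sources used here. Precision is limited by the number of arrays. The deposited intensities were turned into log2(signal + 16), and fold changes on this scale understate those of dim genes. Control probe sets (57) and those with a mean signal under the 40th percentile (69.7, 12435 probe sets) were left out, which left 18607. Lines, taken from the sample titles, were compared by the moderated tests of limma 3.58.1 (R 4.3.3), as an F test over all 4 lines, each line against the mean of the others, Ept2 and Ept6 against Ept1 and Ept9, and all 6 pairs, with Benjamini-Hochberg adjustment over all tested probe sets within each comparison and a threshold of 0.05. Permutation tests were exact, on the between-line sum of squares, which has no direction. The code was tested on simulated data. Genes came from the platform annotation, with 20826 probe sets of 1 symbol, 436 of several and 9831 of none, and chromosomes and promoters from RefSeq (GRCr8). The named genes are all member probe sets, the 5 genes most like the member with the smallest F p, called genes of the lists, and a few others (*Hrk*, *Apaf1*, *Casp9*, *Mdm2*) chosen after their values were seen. Each of these was tried in turn: leaving out 1 array, the replicate number as a block, array quality weights, an intensity trend in the prior, a filter at the 60th percentile or none, median centring or quantile normalization, and a pseudocount of 1 or 64. Expression of the parental strains was not analysed here.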

Additional observations from a re-analysis of the deposited data

How the results depend on the processing

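With 21 alternatives, the count of member probe sets called among the 4 lines was 0 in 19 and 1 (*Bik*) in 2, the filter at the 60th percentile, which tested 8 member probe sets of 12392 in all, and the intensity trend. The count over the 6 pairs of lines was 1 (*Bik*) with the intensity trend. Each line against the rest, and Ept2 and Ept6 against Ept1 and Ept9, gave 0 throughout. Leaving out 1 array at a time gave 0 to 0 for every count. Over all tested probe sets the F test called 184. It called 53 with no filter, 296 with the stricter filter, 419 with the trend and 74 to 139 with 1 array left out.

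The replicate number as a block gave 0 called members in each comparison and called 84 probe sets in all by the F test. It ended the calls of *Birc5* (F test adjusted p = 0.0969, Ept2 0.0917, Ept9 0.0725) and of *Bcl2a1* in Ept2 (0.0566). Same-numbered arrays of different lines did not deviate together, with correlations from -0.13 to 0.073 over 18 pairs. Of the 12 arrays, 4 correlated best with their own number. No pairing by number was seen in these correlations, which cannot show a pairing limited to some genes.

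The log2 change of *Bik* in Ept1 ran from -0.70 to -0.47, and that of *Bcl2l1* with Ept2 and Ept6 against Ept1 and Ept9 from 0.37 to 0.54, with no change of direction. Dim probe sets (*Bak1*, *Bcl2*, the second sets of *Bid* and *Bcl2l11*) leave wide intervals. The causes were not tested.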
